A study of Homo sapiens with 9 samples.

Results

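The autophagy and lysosome genes were 52 genes out of 18417 genes measured in human adrenocortical cells. They were chosen by name, with earlier results of these data known. Each gene was read from the probe set that the array annotation gives to that gene alone, and where a gene had several such probe sets, from the one with the highest mean. The members fell into 7 groups by role: the receptor SQSTM1 with the ATG8 family (6 genes), the machinery that builds autophagosomes (10), the MiT/TFE transcription factors with the calcium channel MCOLN1 (4), lysosomal membrane and cholesterol transfer proteins (6), cathepsins with TPP1 (9), other hydrolases with the saposin precursor (8) and the proton pump (9).

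Expression was measured on GeneChip Human Gene 1.0 ST arrays in H295R cells, an adrenocortical carcinoma line that makes steroids and serves as a model of the human adrenal cortex. After 24 h in growth medium, the cells spent 48 h in serum-free medium with 10 mM metformin, a biguanide drug that inhibits the mitochondrial respiratory chain and activates the energy sensor AMPK, in serum-free medium alone (starvation), or in growth medium (normal growth). Each group had 3 arrays, labelled A, B and C. The growth medium held serum and a supplement of insulin, transferrin and selenium that the starvation medium lacked, so the loss of serum and the loss of the supplement cannot be told apart. The study's text does not describe the metformin cultures, which stand in the sample labels alone. The series' description speaks of 3 independent experiments, without saying whether a letter marks the same experiment in each group. For the metformin arrays it is the sole source on this point, and their p-values measure the spread between arrays, which could be technical. All values are log2 expression values from RMA, on which a difference of 1 is a 2-fold change, and levels are not compared between genes.

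Autophagy wraps portions of the cytoplasm in a membrane, the autophagosome, and delivers them to lysosomes for breakdown. Kinase and lipid signals start the membrane, ubiquitin-like proteins of the ATG8 family are coupled to it, and acid hydrolases in the lysosome, kept active by the vacuolar proton pump, digest the cargo. The transcription factors TFEB, TFE3 and MITF bind E-box elements in many lysosomal and autophagy genes, and are held in the cytoplasm by mTORC1 when nutrients are plentiful. Their activity depends largely on phosphorylation and entry into the nucleus, which an expression array does not measure. In the adrenal cortex, lysosomes also process the cholesterol of internalised lipoproteins, a source of substrate for steroid synthesis.

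The E-box core of the lysosomal gene network is the palindrome TCACGTGA. It was searched on both strands of the RefSeq promoter windows (GRCh38.p14), which run from 250 bases before to 50 bases after a gene start. Of the 52 members, 39 had a window, and 5 of these 39 (12.8%) held the core. The core was found in 1.18% of all 27305 genes with a window, and in 0.98% of all 35116 windows. The wider E-box CACGTG, which lies within the core, was found in 10 of 39 members (25.6%), 8.77% of all genes and 7.26% of all windows. The element TGATGNAA is of the C/EBP-ATF type bound by factors of the amino acid and unfolded protein responses. It was found in 0 of 39 members, 4.46% of all genes and 3.62% of all windows. The 5 members with the core are shown from 90 bases before the gene start to the first 10 bases of the transcript, because their expression is set beside the motif further on. Capitals mark the core.
GAA, chr17:80101491-80101590, plus strand: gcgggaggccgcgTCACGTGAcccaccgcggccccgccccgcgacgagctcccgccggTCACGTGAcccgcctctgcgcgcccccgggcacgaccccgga
MCOLN1, chr19:7522534-7522633, plus strand: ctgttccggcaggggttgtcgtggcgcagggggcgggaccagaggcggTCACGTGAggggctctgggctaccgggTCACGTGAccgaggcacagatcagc
ATP6V0D1, chr16:67481148-67481247, minus strand: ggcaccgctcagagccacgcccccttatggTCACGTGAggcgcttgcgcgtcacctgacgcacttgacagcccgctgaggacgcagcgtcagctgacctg
CTSA, chr20:45891245-45891344, plus strand: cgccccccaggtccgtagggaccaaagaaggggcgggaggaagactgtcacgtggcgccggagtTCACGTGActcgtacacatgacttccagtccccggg
LAMP1, chr13:113297149-113297248, plus strand: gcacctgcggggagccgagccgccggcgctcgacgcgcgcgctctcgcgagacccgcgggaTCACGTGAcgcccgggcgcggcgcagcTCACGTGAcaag
GAA, MCOLN1 and LAMP1 each carried 2 copies of the core in this stretch, and ATP6V0D1 and CTSA carried 1. A match describes these letters and does not show that a factor was bound there.

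The mean of 49 of 52 members lay at or above the median probe set, as did that of 11624 of all 18417 genes. Some members lay close to it, such as TFEB, ATG16L1 and CTSH, at mean percentiles of 54.8, 56.6 and 57.8 of the array. The 2 members MAP1LC3A and ATP6V0D2 lay below the array median on all 9 arrays. Of 11 adrenocortical markers, 10 lay above the median probe set. The mean of these markers over an array lay at 9.54 to 9.79 with metformin, 9.79 to 9.84 under starvation and 10.09 to 10.18 under normal growth. In metformin against starvation, 3 of the 11 fell, namely HSD3B2 (-1.33, adjusted p = 0.0212), SULT2A1 (-0.82, adjusted p = 0.0145) and NR5A1 (-0.46, adjusted p = 0.0196), and MC2R rose (1.02, adjusted p = 0.0389). Against normal growth, 5 of the 11 fell and 1 rose with metformin, and 1 fell and 0 rose under starvation. The part of these shifts in the members' changes was not tested. Macrophages, which are rich in lysosomes, were checked by 10 marker genes, of which 1 lay above the median probe set. Their array means were 4.22 to 4.36 with metformin, 4.25 to 4.42 under starvation and 4.27 to 4.31 under normal growth, and 0 of the 10 passed the test in any comparison. Arrays correlated at 0.9903 to 0.9951 within the metformin group, 0.9945 to 0.9973 within starvation and 0.9964 to 0.997 within normal growth.

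The first comparison asked what metformin did in starved cells. Metformin raised 10 members and lowered 2 at an adjusted p under 0.05, and the other 40 did not pass the test. The members that rose were the phosphoinositide-binding protein WIPI1, the ATG8 protein GABARAPL1, the membrane protein LAMP2, the cholesterol transfer proteins NPC1 and NPC2, and the digestive enzymes CTSB, CTSL, TPP1, GLB1 and GAA. The members that fell were MCOLN1 and the proton pump subunit ATP6V0D1. In bulk cultures, a change in some of the cells and a smaller one in all of them cannot be told apart. The changes were small: WIPI1 passed 1.5-fold and 0 members reached 2-fold.

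The 10 of 52 members that rose (19.2%) stand beside 3.14% of all genes tested, and the 2 that fell (3.85%) beside 2.89%. As the members were chosen with earlier results of these data known, these shares describe the list and do not test it. Most members lay at or above the median probe set, and such bright genes passed the test more often. The background among the 11624 genes at or above it is therefore also given, which was 4.59% for rises and 4.28% for falls. Without adjustment, 17 members were higher and 6 lower at a p under 0.05 (44.2% of members, against 33.3% of the bright genes and 23.6% of all genes). The metformin and starvation arrays did not overlap in 20 members that were higher with metformin (38.5%, against 22.3% of the bright genes and 15.7% of all genes). They did not overlap in 8 that were lower (15.4%, against 21.1% of the bright genes and 15.2% of all genes). The median log2 change was 0.07 over the members and -0.03 over all genes. Of the 10 rises, 8 were in lysosomal enzymes and in membrane and cholesterol transfer proteins, and 2 in autophagy genes.

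**Figure D1:**
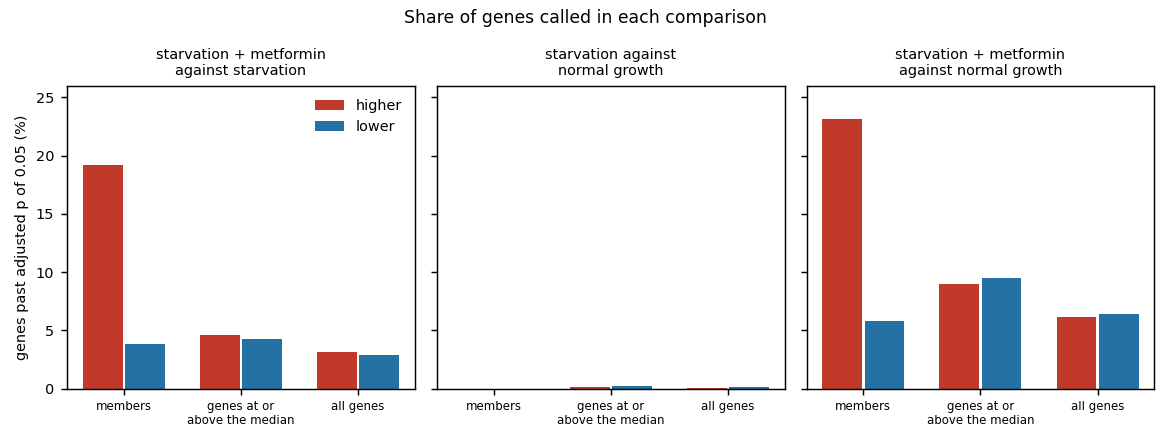
Share of genes past an adjusted p of 0.05 from limma (vertical axis, percent), higher and lower, for the 52 members, the 11624 genes at or above the median probe set and all 18417 genes, in each comparison. With metformin, 19.2% of members were higher than under starvation and 23.1% higher than under normal growth, while 0 members passed in starvation against normal growth. The members were chosen with earlier results of these data known, so the shares are a description.

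These calls rested on all 6 arrays. With any single array left out the number of members called higher was 0 to 4: it was 0 without starvation replicate A, B or C or without metformin replicate A, 4 without metformin replicate B and 3 without metformin replicate C, and the number called lower was 0 in each case. In the 4 settings with 0 members, 0 of all 18417 genes passed either. With the arrays shifted to a common median, 2 members were called higher and 1 lower. All 12 members kept their direction and an unadjusted p under 0.05 from limma under each of these settings.

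Among the ATG8 proteins and their cargo receptor, metformin raised GABARAPL1, a member of the GABARAP branch. Its values were 11.06, 10.95 and 10.96 with metformin, against 10.60, 10.63 and 10.52 under starvation and 10.64, 10.44 and 10.55 under normal growth. The metformin arrays lay above all the others, by 0.41 ± 0.06 (SE) over starvation (adjusted p = 0.0295). Its relative GABARAP, in contrast, had 12.18, 12.16 and 12.19 with metformin, against 12.30, 12.16 and 12.21 under starvation and 12.20, 12.17 and 12.25 under normal growth. These ranges overlapped, with a log2 change of -0.05 on metformin (95% interval -0.19 to 0.09).

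GABARAPL2, the third protein of that branch, had 11.60, 11.69 and 11.60 with metformin, 11.52, 11.55 and 11.49 under starvation and 11.46, 11.50 and 11.45 under normal growth. The metformin arrays lay above the others, but the difference of 0.11 from starvation did not pass (adjusted p = 0.361, interval -0.03 to 0.25). SQSTM1, also known as p62, is the receptor that links ubiquitinated cargo to ATG8 proteins. Its values of 10.33, 10.34 and 10.43 with metformin overlapped those of starvation (10.41, 10.29 and 10.39), while normal growth had 10.26, 10.19 and 10.31. The change with metformin was 0.01 (interval -0.15 to 0.16).

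MAP1LC3B, the LC3 protein most used as an autophagosome marker, had 8.22, 8.43 and 8.14 with metformin, 8.20, 8.14 and 8.14 under starvation and 8.09, 8.01 and 8.10 under normal growth. The metformin and starvation ranges overlapped, and the change was 0.10 (interval -0.11 to 0.32). A brighter probe set shared with the near-identical MAP1LC3B2 gave a change of -0.06 (adjusted p = 0.703), so the sign for LC3B depended on the probe set. MAP1LC3A lay below the array median, at 5.75, 5.70 and 5.77 with metformin, 5.77, 5.85 and 5.77 under starvation and 5.77 on each normal growth array, and such a dim probe set says little about its transcript. In this role group 1 of 6 genes rose with metformin and 0 fell. The rise was 16.7% of the group, against 4.59% of the bright genes and 3.14% of all genes.

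**Figure D2:**
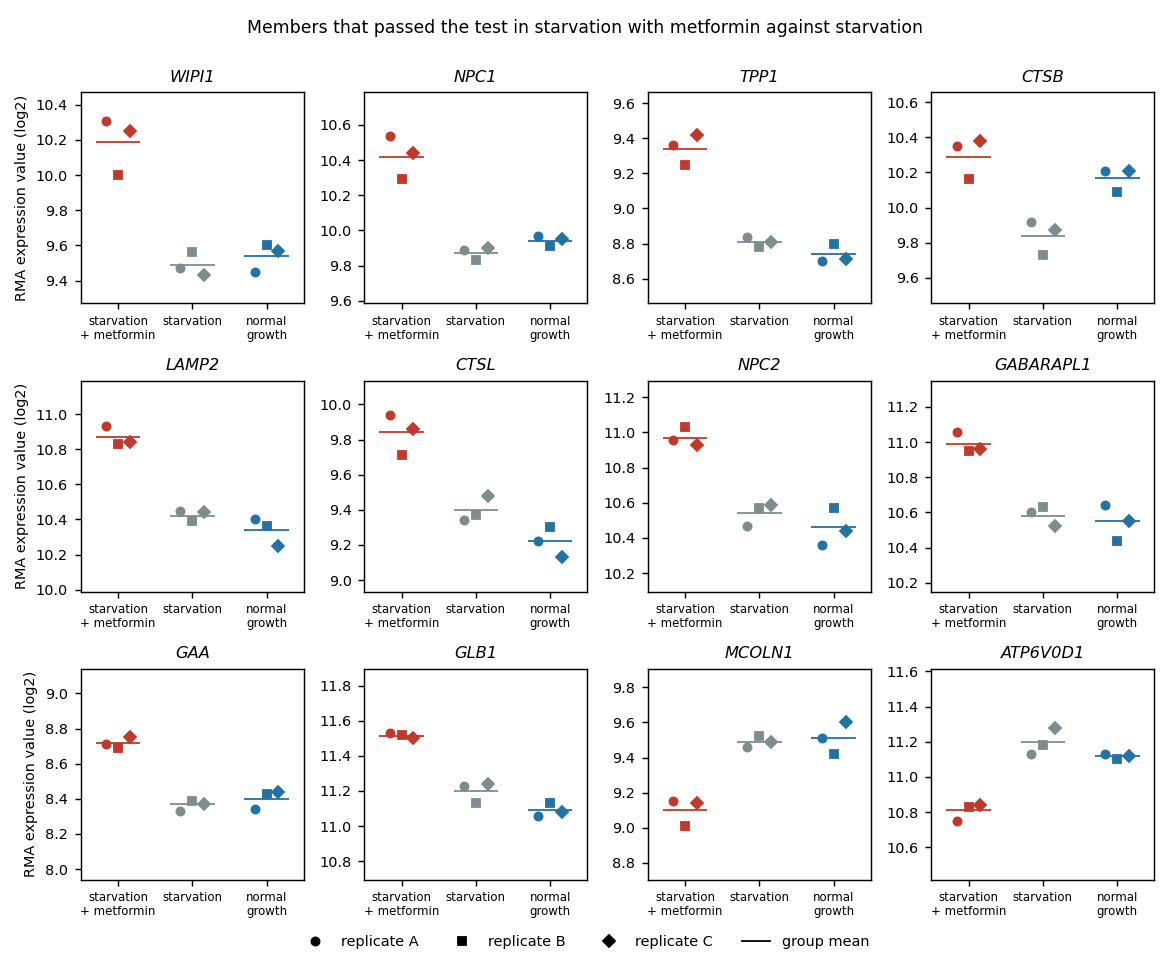
RMA expression value (log2, vertical axis) on each array for the 12 members that passed the test in metformin against starvation, with a marker for each replicate letter and a line for the group mean; every panel spans the same range of values. The 3 metformin arrays lie above the starved arrays in 10 panels and below them in MCOLN1 and ATP6V0D1, and in CTSB the starved arrays stand apart from both other groups.

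Of the 10 genes of autophagosome formation, metformin raised 1 (10.0%, against 4.59% of the bright genes and 3.14% of all genes). It was WIPI1, a protein that binds the phosphoinositide on the forming membrane. WIPI1 had 10.31, 10.00 and 10.25 with metformin, against 9.47, 9.56 and 9.43 under starvation and 9.45, 9.60 and 9.57 under normal growth. The lowest metformin array, B, still lay 0.44 above the highest starved array. The change of 0.70 ± 0.10 (1.62-fold, adjusted p = 0.0243) was the largest of the 52 members. WIPI2, its relative that recruits the ATG16L1 complex, averaged 8.87 ± 0.06 with metformin, 8.92 ± 0.06 under starvation and 8.90 ± 0.02 under normal growth (SD, n = 3 each), with a change of -0.05 against starvation (interval -0.21 to 0.10).

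UVRAG, a partner of Beclin 1 in a lipid kinase complex, averaged 9.12 ± 0.20 with metformin, 8.82 ± 0.11 under starvation and 8.93 ± 0.07 under normal growth (SD, n = 3 each). Its change of 0.30 on metformin had an unadjusted p of 0.041 from limma and an adjusted p of 0.227. ATG14, the subunit that directs that kinase to autophagy, averaged 8.11 ± 0.07 with metformin, 8.32 ± 0.11 under starvation and 8.31 ± 0.05 under normal growth, and its change of -0.21 had an adjusted p of 0.196. The starting kinase ULK1, the kinase complex subunit BECN1 and the conjugation genes ATG5, ATG7, ATG12 and ATG16L1 had changes between -0.14 and 0.15 and did not pass. Of the 46 other autophagy genes that were measured, 0 rose and 0 fell with metformin against starvation, with a median change of 0.05. At an unadjusted p under 0.05 from limma there were 8 (17.4%), fewer in share than the bright genes (33.3%) and all genes (23.6%).

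The transcripts of the MiT/TFE factors showed no change that passed. TFEB had 6.43, 6.51 and 6.63 with metformin, 6.49, 6.53 and 6.42 under starvation and 6.51, 6.56 and 6.51 under normal growth. Its probe set lay close to the array median. TFE3 had 9.57, 9.47 and 9.60 with metformin, 9.51, 9.44 and 9.51 under starvation and 9.61, 9.49 and 9.45 under normal growth. MITF had 8.61, 8.49 and 8.60 with metformin, 8.58, 8.66 and 8.78 under starvation and 8.56, 8.40 and 8.59 under normal growth. The ranges of metformin and starvation overlapped in all 3 genes, and the changes were 0.04 for TFEB (interval -0.14 to 0.22), 0.06 for TFE3 (-0.09 to 0.20) and -0.10 for MITF (-0.29 to 0.08).

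MCOLN1, the lysosomal calcium channel whose release of calcium promotes the dephosphorylation of TFEB, fell with metformin. Its values were 9.15, 9.01 and 9.14 with metformin, against 9.46, 9.52 and 9.49 under starvation and 9.51, 9.42 and 9.60 under normal growth. The metformin arrays lay below the other 6, and the change against starvation was -0.39 ± 0.06 (adjusted p = 0.0321). Of the 15 other genes that control these factors, such as Rag GTPases, their partners and mTORC1 regulators, 1 rose: RRAGD, a Rag GTPase that is itself a target of the MiT/TFE factors, had a change of 0.45 (adjusted p = 0.0212). This share of 6.67% stood beside 4.59% of the bright genes and 3.14% of all genes.

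Of the 6 membrane and cholesterol transfer genes, 3 rose with metformin, 0 fell, and the median change was 0.33. LAMP2, a major glycoprotein of the lysosomal membrane needed for fusion with autophagosomes, had 10.93, 10.83 and 10.84 with metformin, against 10.45, 10.39 and 10.44 under starvation and 10.40, 10.36 and 10.25 under normal growth. The metformin arrays stood apart, with a change of 0.44 ± 0.06 (adjusted p = 0.0209). Its close relative LAMP1 averaged 10.91 ± 0.07 with metformin, 10.88 ± 0.03 under starvation and 10.87 ± 0.02 under normal growth (SD, n = 3 each). The LAMP1 change of 0.03 had an interval of -0.12 to 0.18, where that of LAMP2 was 0.30 to 0.58, and the difference between the genes was not tested.

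NPC2 binds cholesterol inside the lysosome and passes it to NPC1, which carries it out through the membrane, and both genes rose. NPC1 had 10.54, 10.29 and 10.44 with metformin, against 9.89, 9.83 and 9.90 under starvation and 9.97, 9.91 and 9.95 under normal growth (change against starvation 0.55 ± 0.08, adjusted p = 0.0255). NPC2 had 10.96, 11.03 and 10.93 with metformin, against 10.47, 10.57 and 10.59 under starvation and 10.36, 10.57 and 10.44 under normal growth (0.43 ± 0.06, adjusted p = 0.0263). In both, the metformin arrays did not overlap the other groups. SCARB2, the receptor that carries glucocerebrosidase to lysosomes, averaged 10.46 ± 0.07 with metformin, 10.24 ± 0.06 under starvation and 10.08 ± 0.04 under normal growth (SD, n = 3 each), and its change of 0.23 against starvation did not pass (adjusted p = 0.123). CD63, a tetraspanin of late endosomes, had a change of 0.08 (interval -0.08 to 0.24).

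**Figure D3:**
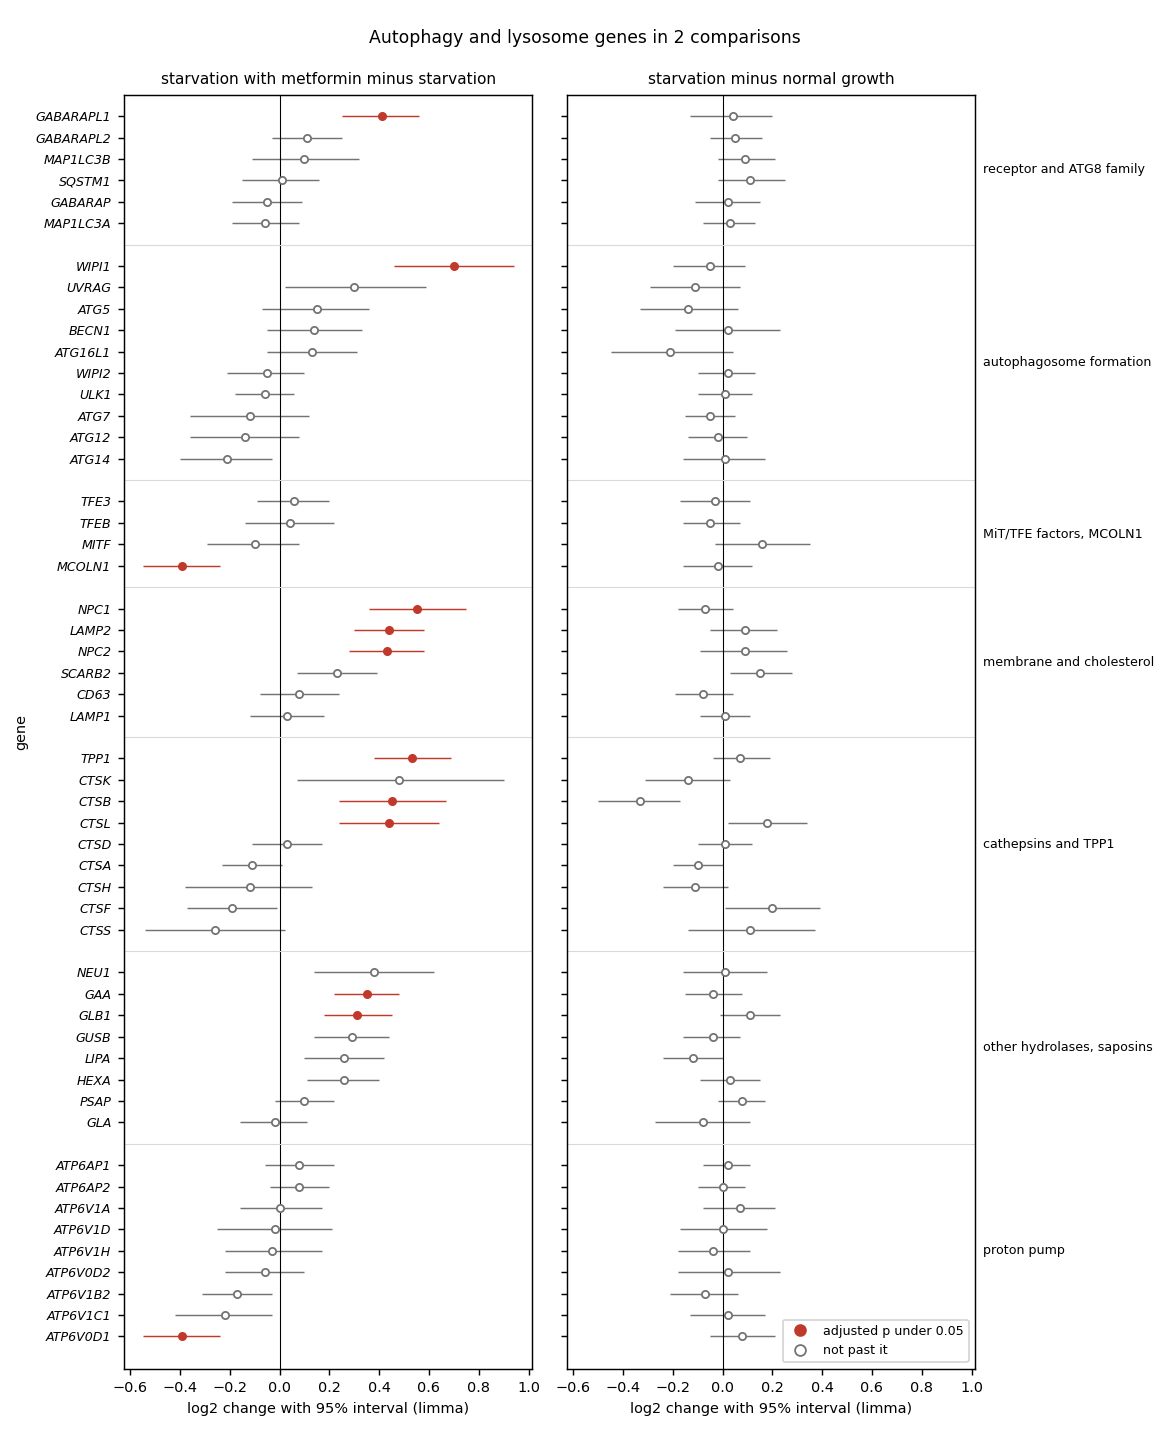
Log2 change (horizontal axis) with its 95% interval from limma for each of the 52 members, grouped by role, in starvation with metformin minus starvation (left) and in starvation minus normal growth (right); filled points passed an adjusted p of 0.05. On the left 10 members lie to the right of 0 and 2 to the left past the threshold, and on the right 0 members passed and CTSB lies lowest at -0.33.

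Of the 9 cathepsins and TPP1, the proteases of the lysosome, 3 rose with metformin and 0 fell. The rises were 33.3% of the group, against 4.59% of the bright genes and 3.14% of all genes. CTSB, a cysteine protease, had 10.35, 10.16 and 10.38 with metformin, 9.92, 9.73 and 9.87 under starvation and 10.21, 10.09 and 10.21 under normal growth. CTSL, another cysteine protease, had 9.94, 9.71 and 9.86 with metformin, 9.34, 9.37 and 9.48 under starvation and 9.22, 9.30 and 9.13 under normal growth. TPP1, a tripeptidyl peptidase that works on peptides the cathepsins leave, had 9.36, 9.25 and 9.42 with metformin, 8.84, 8.78 and 8.81 under starvation and 8.70, 8.80 and 8.71 under normal growth. The metformin arrays lay above the starved ones in all 3 genes, with changes of 0.45 ± 0.09 for CTSB (adjusted p = 0.0479), 0.44 ± 0.08 for CTSL (adjusted p = 0.0431) and 0.53 ± 0.06 for TPP1 (adjusted p = 0.0196).

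The levels differed in how they stood to normal growth. The metformin values of CTSL and TPP1 lay above normal growth too, whereas those of CTSB overlapped it. CTSD, the main aspartic protease of lysosomes, averaged 11.32 ± 0.07 with metformin, 11.29 ± 0.01 under starvation and 11.28 ± 0.05 under normal growth (SD, n = 3 each), a change of 0.03 with an interval of -0.11 to 0.17. CTSF averaged 9.22 ± 0.08 with metformin, 9.40 ± 0.08 under starvation and 9.20 ± 0.11 under normal growth, and its change of -0.19 had an adjusted p of 0.228. CTSA, CTSH and CTSS had changes of -0.11, -0.12 and -0.26 and did not pass. CTSK, a collagen-degrading cathepsin that lay close to the array median, had a change of 0.48 with a wide interval of 0.07 to 0.90 (adjusted p = 0.19), its metformin arrays ranging from 5.87 to 6.53.

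Of the 8 other hydrolases and the saposin precursor, 2 rose with metformin and 0 fell. The rises were 25.0% of the group, against 4.59% of the bright genes and 3.14% of all genes. The metformin and starved arrays did not overlap in 7 of the 8, each higher with metformin. Such separation was found in 22.3% of the bright genes and 15.7% of all genes. GLB1, the beta-galactosidase, had 11.53, 11.52 and 11.50 with metformin, against 11.23, 11.13 and 11.24 under starvation and 11.06, 11.13 and 11.08 under normal growth (change against starvation 0.31 ± 0.06, adjusted p = 0.0418). GAA, the alpha-glucosidase that breaks down glycogen in lysosomes, had 8.71, 8.69 and 8.75 with metformin, against 8.33, 8.39 and 8.37 under starvation and 8.34, 8.43 and 8.44 under normal growth (0.35 ± 0.05, adjusted p = 0.0274). In both genes the metformin arrays lay above the other 6.

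The sialidase NEU1 (change 0.38, adjusted p = 0.098), the beta-glucuronidase GUSB (0.29, adjusted p = 0.0648), the acid lipase LIPA (0.26, adjusted p = 0.0933) and the hexosaminidase subunit HEXA (0.26, adjusted p = 0.0757) were separated between the groups without passing the threshold. GUSB was also read by 7 probe sets shared with its pseudogenes, with changes of 0.33 to 0.37, of which 4 passed (adjusted p = 0.0378 to 0.0477). Their signal cannot be assigned to GUSB alone. LIPA, which frees cholesterol from the esters of internalised lipoproteins, averaged 9.26 ± 0.08 with metformin, 9.0 ± 0.06 under starvation and 9.12 ± 0.03 under normal growth (SD, n = 3 each). PSAP, the precursor of the saposins that present lipids to hydrolases, had a change of 0.10, and GLA, the alpha-galactosidase, one of -0.02 (interval -0.16 to 0.11).

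Of the 9 proton pump genes, 0 rose with metformin and 1 fell, with a median change of -0.03. The fall was 11.1% of the group, against 4.28% of the bright genes and 2.89% of all genes. The pump uses ATP to acidify the lysosome. ATP6V0D1, the subunit that joins the pump's rotor to its membrane ring, had 10.75, 10.83 and 10.84 with metformin, against 11.13, 11.18 and 11.28 under starvation and 11.13, 11.10 and 11.12 under normal growth. The metformin arrays lay below the other 6, with a change against starvation of -0.39 ± 0.06 (adjusted p = 0.0337). ATP6V1B2, of the catalytic head, had a change of -0.17 (adjusted p = 0.178) and ATP6V1C1, of the stalk, one of -0.22 (adjusted p = 0.185). The remaining 6 members, which include the head subunit ATP6V1A and the accessory proteins ATP6AP1 and ATP6AP2, had changes between -0.06 and 0.08. ATP6V0D2, the other form of subunit d, lay below the array median on all 9 arrays. Of 18 further proton pump genes, 0 rose and 0 fell. At an unadjusted p under 0.05 from limma there were 4 (22.2%, against 33.3% of the bright genes and 23.6% of all genes).

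Lysosomal genes outside the 52 gave a larger range of change. Of 45 such genes, 10 rose with metformin against starvation (22.2%, against 4.59% of the bright genes and 3.14% of all genes). The number that fell was 0, and 5 of the 10 passed 1.5-fold. The largest rises among these 10 were those of CTBS, a chitobiase (1.18, adjusted p = 0.0119), MANBA, the beta-mannosidase (0.90, adjusted p = 0.0175), ASAH1, the acid ceramidase (0.80, adjusted p = 0.0136), SLC17A5, the sialic acid exporter (0.74, adjusted p = 0.0118), DNASE2, the acid DNase (0.66, adjusted p = 0.0119) and NAGLU, an enzyme of heparan sulfate breakdown (0.48, adjusted p = 0.0335). LAMP3 had a change of 0.86 that did not pass (adjusted p = 0.17), with metformin arrays at 8.08, 6.89 and 7.48 against 6.64, 6.56 and 6.67 under starvation. These lists were chosen with earlier results of the arrays known, and no test of a list was made.

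**Figure D4:**
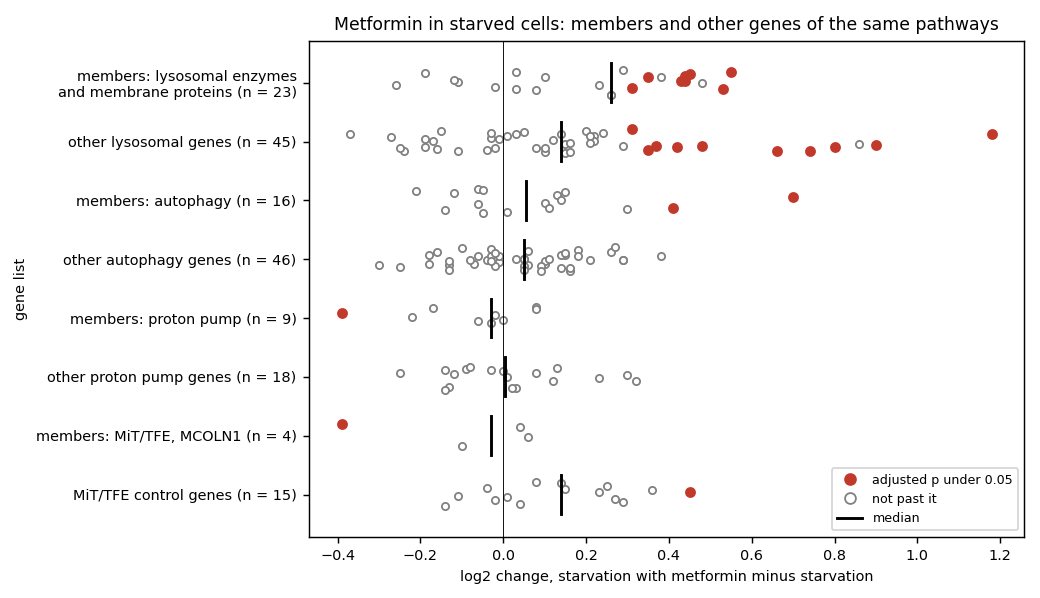
Log2 change in starvation with metformin minus starvation (horizontal axis) for members and for other genes of the same pathways; each point is a gene, filled where its adjusted p from limma was under 0.05, and the bar is the median. The 10 other lysosomal genes past the threshold all lie to the right of 0, up to 1.18 for CTBS, and 0 of the 46 other autophagy genes passed.

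The 5 promoters printed above belonged to genes that did not share a direction. Against starvation, GAA rose with metformin, MCOLN1 and ATP6V0D1 fell, CTSA had a change of -0.11 (interval -0.23 to 0.01) and LAMP1 one of 0.03. Of the 12 called members, 10 had a promoter window, and 3 of these 10 held the core, which was found in 1 of the 8 that rose. WIPI1, the member with the largest change, had a window without the core.

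The metformin arrays were not alike. Among the 12 called members, array A lay farthest from the starved mean in 7 and array B nearest in 8. Over all 52 members, the shift from the starved mean was taken in the direction of each gene's change. Array C had the largest such shift most often, in 22, with A in 18 and B in 12. Array B had the smallest in 24. Metformin array B also stood apart in the stress factor DDIT3, also called CHOP, which had 10.80, 9.70 and 10.75 with metformin against 8.99, 8.78 and 8.97 under starvation, a change of 1.5 that did not pass (adjusted p = 0.055). Whether these differences between metformin arrays play a part in the members' changes was not tested.

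The second comparison asked what starvation did to these genes. The starved cells lost serum and the supplement but kept the basal medium, so the response to loss of that medium's nutrients was not measured. This comparison shares the starved arrays with the first. In starvation against normal growth, 0 members rose and 0 fell, where 0.0652% of all genes rose and 0.163% fell in the same test (12 and 30 genes), and 0.0946% and 0.249% of the bright genes. At an unadjusted p under 0.05, 4 members (7.69%, against 13.7% of the bright genes and 9.88% of all genes) differed with limma and 6 with the methods' t-test, of which 0 passed after adjustment. The starved and normal growth arrays did not overlap in 5 members that were higher (9.62%, against 8.92% of the bright genes and 6.86% of all genes) and 8 that were lower (15.4%, against 13.8% and 9.62%). These shares of members were close to those of the bright genes. The 95% intervals of all 52 members lay within a 1.5-fold change in either direction, with bounds of -0.50 and 0.39.

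CTSB had the largest difference of the 52, at -0.33 against normal growth, from the arrays given above (interval -0.50 to -0.17). Its starved arrays lay below those of normal growth, with an unadjusted p of 0.00282 from limma and an adjusted p of 0.213. The other 3 were CTSF at 0.20 (adjusted p = 0.589), CTSL at 0.18 (adjusted p = 0.559) and SCARB2 at 0.15 (adjusted p = 0.487). The starved arrays of CTSL and SCARB2 lay above those of normal growth, and those of CTSF did as well. WIPI1 (-0.05), GABARAPL1 (0.04), SQSTM1 (0.11), MAP1LC3B (0.09), ULK1 (0.01) and TFEB (-0.05) did not pass, and all 6 genes of the ATG8 group had values between 0.02 and 0.11.

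The third comparison set metformin against normal growth, and shares its metformin arrays with the first, so the 2 are not independent. Against normal growth, 12 members rose (23.1%, against 9.01% of the bright genes and 6.15% of all genes) and 3 fell (5.77%, against 9.5% and 6.36%). At an unadjusted p under 0.05, 21 members differed (40.4%, against 28.5% of all genes), which is the share of the bright genes (40.3%). The groups did not overlap in 21 members that were higher (40.4%, against 23.6% of the bright genes and 16.8% of all genes) and in 9 that were lower (17.3%, against 26.5% and 19.0%). WIPI1, TPP1 and CTSL passed 1.5-fold, with changes of 0.65, 0.61 and 0.62.

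Of the 15 members called here, 11 were also called against starvation. The 4 called against normal growth alone were SCARB2, HEXA, NEU1 and CTSA, and a difference between the comparisons was not tested for any of them. With all 9 arrays in one limma fit, SCARB2, HEXA and NEU1 also passed against starvation (adjusted p = 0.0449, 0.0217 and 0.0308). SCARB2 had 10.54, 10.40 and 10.46 with metformin and 10.13, 10.07 and 10.05 under normal growth (change 0.38, adjusted p = 0.0172), with starvation in between at 10.27, 10.17 and 10.28. HEXA had 10.62, 10.56 and 10.66 with metformin, 10.40, 10.30 and 10.37 under starvation and 10.37, 10.34 and 10.28 under normal growth (0.28 against normal growth, adjusted p = 0.0318). In both genes the metformin arrays lay above the other 6.

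NEU1 had 10.48, 10.31 and 10.60 with metformin, 10.00, 10.20 and 10.04 under starvation and 10.01, 10.10 and 10.12 under normal growth (0.39 against normal growth, adjusted p = 0.0478). CTSA, the serine carboxypeptidase that protects NEU1 and GLB1 in a complex, had 11.65, 11.66 and 11.65 with metformin, 11.79, 11.75 and 11.75 under starvation and 11.83, 11.87 and 11.89 under normal growth. The 3 groups of CTSA did not overlap, and its change of -0.21 against normal growth passed (adjusted p = 0.0452) while its partners in that complex rose. The member called against starvation alone was CTSB, whose change against normal growth was 0.12 (interval -0.07 to 0.31).

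These calls also moved when an array was left out. The number called higher was 1 without array A of normal growth, 3 without array B and 2 without array C, and it was 8, 12 and 13 without metformin arrays A, B and C. The number called lower was 0 to 2 over these settings. All 15 kept their direction and an unadjusted p under 0.05 from limma in each setting. Beyond the members, 1 of 46 other autophagy genes rose against normal growth (2.17%, against 9.01% of the bright genes and 6.15% of all genes). It was NBR1, a cargo receptor related in function to SQSTM1, with a change of 0.43 (adjusted p = 0.0251). Of 18 further proton pump genes, 1 fell (5.56%, against 9.5% of the bright genes and 6.36% of all genes). It was ATP6V0B, with a change of -0.23 (adjusted p = 0.0341).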

How the data were processed

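The deposited log2 values, one column for each of the 9 arrays, were made by the authors with RMA, which corrects background, quantile normalizes and summarises probes by median polish. Affymetrix Expression Console and limma are listed in the submitters' processing notes beside RMA, and Affymetrix Power Tools in the study's methods, with versions not given in the sources used here. Values ran from 1.57 to 13.7 and array medians from 6.04 to 6.16. Arrays have no read depth, and 3 arrays per group limit the precision.

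Groups were taken from the sample titles. Each comparison used lmFit and eBayes of limma 3.58.1 (R 4.3.3) on its 6 arrays, with no block, Benjamini-Hochberg adjustment over all 33297 probe sets and a threshold of 0.05. With 3 arrays against 3 an exact permutation test of a single gene cannot give a p below 0.1, so none was used. The fit was tested on simulated data. Genes were named from the 19460 probe sets with 1 symbol, and members of the further lists that lacked one, 13 genes, are not analysed here. On 2 or more arrays, 12 members had identical values, which median polish can give.

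The members and lists were chosen with earlier results of these data known. The rule for naming gave the values of every array for members past the threshold whose groups did not overlap, for the ATG8 group and for the MiT/TFE group, and means or changes for others. From each further list, up to 6 genes past the threshold were named, those with the largest change. CTSK, LAMP3, DDIT3 and others singled out beyond that rule were chosen after their values were seen. Alternatives in the fit were a block for the replicate letter, Student's t-test, each array left out, trend and robust options, and all 9 arrays in one fit. The study's methods name Student's t-test in their general statistics and not for the arrays. Alternatives in the values were a repeated quantile normalization and arrays shifted to a common median. Alternatives in the probe sets were the mean over those of a gene, those of single genes alone, and removal of dim ones (mean under the 40th percentile).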

Additional observations from a re-analysis of the deposited data

How the results depend on the processing

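In metformin against starvation, 10 members were higher and 2 lower. With arrays shifted to a common median these counts were 2 and 1, which also moved the split of calls. With Student's t-test they were 4 and 1. The lower call of the t-test was CTSA (adjusted p = 0.0489), and neither MCOLN1 nor ATP6V0D1 passed there. The higher calls of the t-test were GAA, LAMP2, NPC2 and TPP1. WIPI1, GABARAPL1, NPC1, CTSB, CTSL and GLB1 did not pass it. All 12 calls were kept with all 9 arrays in one fit, a repeated quantile normalization or dim probe sets left out. They were also kept with probe sets of single genes alone, the mean over probe sets, or trend and robust options. In the fit of all 9 arrays, GUSB, HEXA, LIPA, NEU1 and SCARB2 were called higher as well. Leaving out one array at a time gave 0 to 4 higher and 0 to 0 lower. In metformin against normal growth, 12 members were higher and 3 lower. The t-test kept 10 of these 15 calls, and WIPI1, GABARAPL1, MCOLN1, NPC1 and NEU1 did not pass it. With dim probe sets left out, 5 were lower, and leaving out one array at a time gave 1 to 13 higher and 0 to 2 lower. The cause of these moves was not tested. In starvation against normal growth, 0 members passed under any of the alternatives run. No called member changed direction under any alternative.

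With the replicate block, 0 members and 0 genes passed in any comparison. No pairing by letter was assumed. In metformin against starvation, same-letter deviations correlated at 0.294, -0.137 and -0.249 for A, B and C, and different-letter ones at -0.383 to 0.44. In metformin against normal growth the values were -0.0884, 0.00978 and -0.164, and -0.108 to 0.182. In starvation against normal growth the same-letter values were all positive, at 0.0903, 0.134 and 0.024, with different-letter ones of -0.11 to 0.0395. Whether a letter marks a shared experiment is not given in the sources used here.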

Other observations

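Of the 45 other lysosomal genes, 12 rose in metformin against normal growth (26.7%, against 9.01% of the bright genes and 6.15% of all genes). The share that fell, 5 of 45 (11.1%), was close to that of the bright genes (9.5%), with 6.36% of all genes. The genes that fell were LAPTM4B, a lysosomal membrane protein (-0.68, adjusted p = 0.00776), ARSB, arylsulfatase B (-0.48, adjusted p = 0.0365), CTSC, the dipeptidyl peptidase (-0.30, adjusted p = 0.0318), PLBD2 (-0.23, adjusted p = 0.0348) and CTSZ (-0.21, adjusted p = 0.0494). LAPTM4B was also the gene of this list with the largest difference in starvation against normal growth, at -0.90, which did not pass (adjusted p = 0.0688). FUCA1, the fucosidase (0.38, adjusted p = 0.0389), and HGSNAT, an enzyme of heparan sulfate breakdown (0.47, adjusted p = 0.0485), were called against normal growth but not against starvation, and the difference between the comparisons was not tested. These genes were chosen after their values were seen.

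Of 11 stress factors, 3 rose in metformin against normal growth (27.3%, against 9.01% of the bright genes and 6.15% of all genes). They were DDIT3 (1.71, adjusted p = 0.0256), TRIB3 (1.63, adjusted p = 0.0358) and SESN2 (0.67, adjusted p = 0.0278). Against starvation 0 of the 11 passed with limma. At an unadjusted p under 0.05 there were 5 (45.5%, against 33.3% of the bright genes and 23.6% of all genes). TRIB3, a pseudokinase induced by the integrated stress response, had 10.01, 8.82 and 9.99 with metformin against 8.03, 7.86 and 8.0 under starvation, with metformin array B again nearest to the starved arrays.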
